A study of Mus musculus with 9 samples.

Results

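Baseline gene expression of the penis of sham-operated rats was described in 3 libraries, Sham 1, Sham 2 and Sham 3, out of 9 libraries in 3 groups. These libraries were taken by their group label, with earlier results of these data known. The Sham rats went through the operation with the major pelvic ganglia left uninjured, and penile tissue was taken 4 weeks afterwards. Those ganglia hold the autonomic neurons that supply the penis, and the study as a whole compared such animals with rats whose ganglia were clamped, with or without transplanted sacral neural crest cells. Strain, age, any pooling of animals and whether each library came from its own animal are given nowhere in these sources, so the spread between libraries may be partly technical.

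The shaft of the penis is built around the corpora cavernosa, in which trabeculae of smooth muscle surround sinusoids lined by endothelium and a dense collagen sheath, the tunica albuginea, encloses the whole. Nitric oxide from nerve fibres and endothelium raises cyclic GMP in the smooth muscle, which relaxes and lets the sinusoids fill. The rat penis also holds the urethra, a keratinised surface, myelinated sensory nerves and a small bone, and striated muscles attach to its base. Bulk RNA mixes all of these, and fewer cells of a type and less RNA per cell cannot be told apart.

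Reads were counted for 21124 genes, with totals of 17191109, 16687550 and 16164575 in Sham 1, 2 and 3. Levels are counts per 1000000 counted reads (CPM), so that 1 CPM stands for 17, 17 and 16 reads. At 17 reads the exact 95 % Poisson interval in Sham 1 ran from 0.576 to 1.58 CPM, and it covers counting error only. No read at all allows a level of up to 0.175, 0.180 and 0.186 CPM (3 reads) in the same order of libraries. The tables give no transcript lengths. A level of 1 gene against that of another is therefore a share of reads, which grows with transcript length, and not a ratio of transcripts. Genes at 1 CPM or more in every library numbered 13905, and 72 genes had a mean of at least 1000 CPM.

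Sham 1 stood apart from the other libraries. Pearson's r of log2(CPM + 1) across genes, which are not independent replicates, was 0.994 between Sham 2 and Sham 3, against 0.980 between Sham 1 and Sham 2 and 0.984 between Sham 1 and Sham 3. Of 10448 genes with a mean of at least 10 CPM, 83 differed by more than 2 times between Sham 2 and Sham 3, 248 between Sham 1 and Sham 3, and 459 between Sham 1 and Sham 2. Skeletal and smooth muscle genes were higher and epithelial genes lower in Sham 1, so the lists are given by library, with their mean without Sham 1. Among the same 10448 genes, Sham 1 was the highest library for 2848, Sham 2 for 4106 and Sham 3 for 3494, while Sham 1 was the lowest for 5167, Sham 2 for 3185 and Sham 3 for 2096. That a single gene was lowest in Sham 1 was therefore common.

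The labels name the tissue as penile but also give a cell type of pluripotent stem cells. Pou5f1, the central transcription factor of pluripotency, had 1 read in Sham 1, none in Sham 2 and 2 in Sham 3. Lin28a, an RNA-binding protein of pluripotent and embryonic cells, had the same read numbers. Of 5 pluripotency genes with a row, a list chosen after values had been seen, only Sox2 reached 1 CPM, with 13.1, 21.2 and 20.4 CPM, and Sox2 is also a gene of epithelia and glia. Hoxd13, the homeobox gene of the genital tubercle and the limb ends, had 128, 143 and 123 CPM. Nanog, Esrrb, Zfp42, Dppa5 and Utf1 of the same list were not analysed here. Eif2s3y, Kdm5d and Uty, genes of the Y chromosome, lay between 30.8 and 87.8 CPM in the 3 libraries. Ddx3y, also of the Y chromosome, went the other way with a mean below 1 CPM.

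Transcripts of the mitochondrial genome, of the extracellular matrix and of the cytoskeleton took most of the reads among the 25 genes with the highest mean CPM. The 25 genes with most reads in each library held 14.9 %, 14.0 % and 14.2 % of its reads, and the top 1000 held 52.9 %, 51.5 % and 51.8 %. Mitochondrially encoded genes took 6.70 %, 6.18 % and 5.98 % (mean 6.29 % ± 0.369, SD, n = 3), and 91 ribosomal protein genes took 3.99 %, 4.50 % and 4.46 %. Reads were thus spread over many genes, and no single transcript dominated a library.

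Mt-co1, subunit I of cytochrome c oxidase, led with 20457, 18007 and 18287 CPM. Mt-co3, Mt-co2, Mt-atp6, Mt-cyb, Mt-nd4, Mt-nd1, Mt-nd2 and Mt-nd5, which encode further subunits of the respiratory chain and ATP synthase, were also among the 25, with library values from 2012 to 8815 CPM. Neighbouring mitochondrial genes overlap in the table (Mt-atp6 with Mt-co3, Mt-nd4 with Mt-nd4l), so the split of reads between them is uncertain. Their CV, the SD as a percentage of the mean, lay between 5.83 % for Mt-nd2 and 12.1 % for Mt-nd5.

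The matrix genes among the 25 were Col1a1, Col1a2, Col3a1, Sparc, Dcn, Kera and Bgn. Col1a1 (chromosome 10, 79883622 to 79900624), the alpha 1 chain of the fibrillar type I collagen, had 16252, 11368 and 13100 CPM. Col1a2, the partner chain of the same collagen, had 11992, 9793 and 9323 CPM. Col3a1, type III collagen of distensible tissues, had 7008, 8705 and 9591 CPM. Both type I chains were highest in Sham 1, where Col3a1 was lowest, so the proportion of type I to type III reads differed between the libraries. All 44 collagen genes together took 4.52 %, 3.77 % and 4.07 % of reads (4.12 % ± 0.377, SD, n = 3), and these 3 chains made up most of that.

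Other collagens had lower read shares. Col6a1 and Col6a2, chains of the beaded type VI collagen, had 1565, 1068 and 1246 CPM and 1187, 786 and 1006 CPM. Col14a1, a collagen on the surface of fibrils, had 1050, 1200 and 1374 CPM. Col4a1 and Col4a2, basement membrane chains, had 537, 495 and 400 CPM and 391, 322 and 292 CPM. Col6a1, Col6a2, Col4a1 and Col4a2 were highest in Sham 1, whereas Col14a1 was lowest there. Sparc, a collagen-binding glycoprotein of the matrix, had 9057, 7860 and 7874 CPM and varied less than the collagen chains named first (CV 8.31 %).

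Small leucine-rich proteoglycans, which bind collagen fibrils and set their diameter and spacing, formed the second set of abundant matrix genes. This list and the list of elastic fibre genes were chosen after values had been seen. Dcn, decorin, had 6653, 7821 and 9474 CPM. Kera, keratocan, known best from the cornea, had 1871, 1742 and 2434 CPM. Bgn, biglycan, had 2383, 1697 and 1798 CPM. Dcn was lowest and Bgn highest in Sham 1, and Kera was highest in Sham 3. Dcn (32281252 to 32321270), Lum (32358614 to 32365793), Kera (32397382 to 32404837) and Epyc (32436620 to 32474135) lie side by side on chromosome 7 in the coordinates of the tables. Lum, lumican, had 1009, 917 and 1180 CPM, and Epyc, epiphycan of cartilage, had 26, 29.5 and 65.9 CPM. All 4 genes of this stretch were highest in Sham 3, and Epyc was 1 of only 2 genes of at least 10 CPM that were more than 2 times higher in Sham 3 than in both other libraries.

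Some fibrous tissue genes varied more. Fmod, fibromodulin, had 2169, 808 and 1183 CPM. Angptl7, a secreted angiopoietin-like protein of the matrix, had 1904, 939 and 835 CPM. Thbs4, thrombospondin 4 of tendon and other fibrous tissue, had 1023, 623 and 806 CPM, and the tenocyte transcription factor Scx had 22.7, 4.61 and 8.41 CPM. All 4 were highest in Sham 1, and the reads of Angptl7 and Scx lie in genes that overlap another gene (Mtor and Bop1). Among 18 genes of the proteoglycan and tendon list, which took 1.78 % ± 0.166 of reads (SD, n = 3), 9 were highest in Sham 1 (against 2848 of all 10448 genes). The 16 elastic fibre genes took 0.400 % ± 0.0497 (SD, n = 3). Of these, Ltbp4, which anchors latent TGF-beta to microfibrils, had 1200, 1032 and 1403 CPM, Eln, elastin, had 446, 559 and 549 CPM, and Fbn1, fibrillin 1, had 332, 588 and 629 CPM.

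The remaining genes of the 25 belonged to neither the mitochondrial nor the matrix genes, and Gsn and Vim among them also stand on the fibroblast list. Gsn (chromosome 3, 18585172 to 18638402), gelsolin, which severs and caps actin filaments and also has a secreted form, had the second highest mean, with 12513, 15152 and 15135 CPM. Ahnak, a giant scaffold protein at the cell membrane, had 2849, 3502 and 3130 CPM. Igfbp5, a secreted binding protein for insulin-like growth factors, had 1900, 2368 and 2621 CPM. Gsn, Ahnak and Igfbp5 were all lowest in Sham 1. Vim, the intermediate filament vimentin of mesenchymal cells, had 2407, 2148 and 2252 CPM and was steadier (CV 5.74 %). Eef2 (translation elongation), Actb (cytoplasmic actin), Fth1 (ferritin heavy chain), Tpt1 (a growth-related protein) and Txnip (a thioredoxin-binding protein) lay between 1642 and 2379 CPM in every library.

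**Figure D1:**
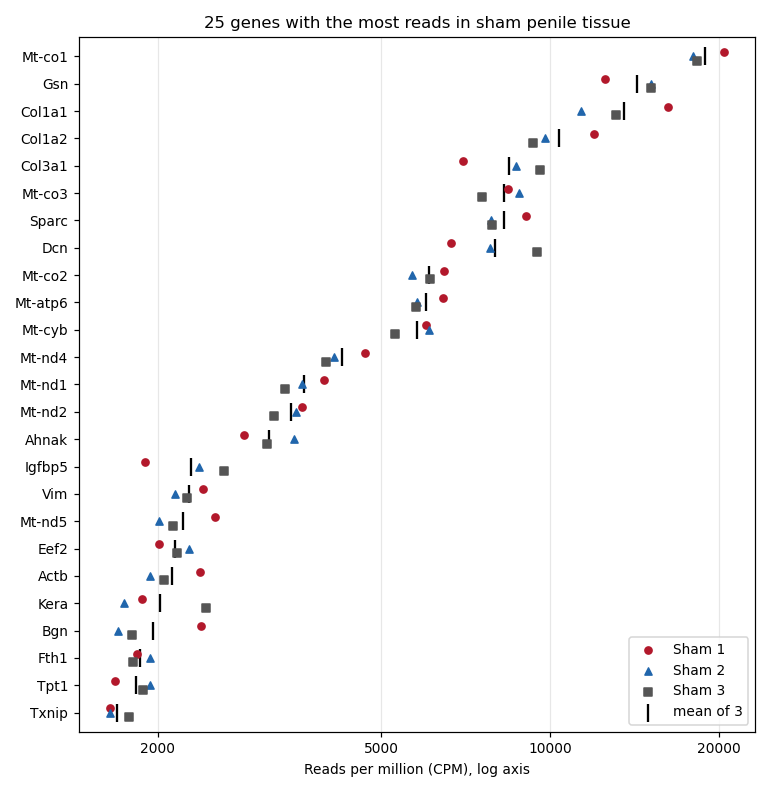
The 25 genes with the highest mean level (CPM, log axis), with 1 symbol per sham library and a bar at the mean. Mt-co1, Gsn and Col1a1 lead; Sham 1 lies highest for Col1a1, Col1a2 and Bgn and lowest for Gsn, Col3a1, Dcn and Igfbp5.

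Smooth muscle genes were abundant in every library and highest in Sham 1. The 20 contractile genes listed took 1.49 %, 0.715 % and 0.670 % of reads (0.957 % ± 0.459, SD, n = 3), or 0.693 % on average without Sham 1. All 20 were highest in Sham 1 (against 2848 of all 10448 genes). Among the 19 members of at least 10 CPM, 15 had a ratio of the highest to the lowest library above 2, beside 5.04 % of all 10448 genes at that level.

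Myh11, the smooth muscle myosin heavy chain, had 2427, 1083 and 1046 CPM. Acta2, smooth muscle alpha actin, had 2110, 1074 and 1023 CPM. Mylk, the kinase that phosphorylates the myosin light chain to start contraction, had 1389, 566 and 515 CPM. Sham 2 and Sham 3 lay close together for each of these, and Sham 1 stood well above both. Tagln, transgelin, which binds actin, had 1331, 669 and 623 CPM (its reads overlap Pcsk7), and the tropomyosin Tpm1 had 1463, 637 and 607 CPM. Myl6, the light chain that smooth muscle shares with non-muscle cells, differed least, with 916, 740 and 708 CPM.

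Some members are also used by striated muscle. Des, the intermediate filament desmin, had 645, 180 and 146 CPM. Tpm2, a tropomyosin of both muscle types, had 1074, 358 and 360 CPM. Actc1, the cardiac alpha actin, had 15.1 CPM in Sham 1 and no read in Sham 2 and Sham 3. With Tpm1, Tpm2, Des, Actc1 and Casq2 left out, a choice made after seeing the data, the list took 1.16 %, 0.597 % and 0.558 % of reads, and Sham 1 was still the highest. Skeletal muscle genes were also highest in Sham 1, and their part in the smooth muscle levels beyond these shared members was not tested.

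Skeletal muscle genes had the widest spread of all lists. The 25 members measured took 1.24 % of reads in Sham 1, against 0.00987 % and 0.0116 % in Sham 2 and Sham 3. All 25 were highest in Sham 1 (against 2848 of all 10448 genes). Myh4, the myosin heavy chain of fast type IIb fibres (chromosome 10, 51885913 to 51946295), had 2330 CPM in Sham 1, 3 reads in Sham 2 and none in Sham 3. Acta1, skeletal alpha actin, had 1985, 4.31 and 4.14 CPM. Atp2a1, the calcium pump of fast fibres, had 1327, 1.26 and 1.42 CPM, and Ckm, muscle creatine kinase, had 925, 3.48 and 5.01 CPM. All 4 of these genes had few reads in both other libraries.

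The list holds genes of fast and of slow fibres. Tnnt3, the fast fibre troponin T, had 751, 31.0 and 43.8 CPM, while Tnnt1, the slow fibre form, had 8.09, 0.539 and 0.309 CPM. Myh2 of type IIa fibres had 40.0, 0.539 and 0.371 CPM, and Myh7 of slow fibres had 4.01 CPM in Sham 1, no read in Sham 2 and 0.124 CPM in Sham 3. Tnnt1, Myh2 and Myh7 were picked after their values were seen. Without Sham 1 the list averaged 0.0107 % of reads. All 20 genes of at least 10 CPM with the largest ratio of the highest to the lowest library were highest in Sham 1, and 12 of them stood on the skeletal muscle list. The others included Xirp2, a protein of the muscle cell's actin attachments, with 91.3 and 0.120 CPM in Sham 1 and Sham 2 and no read in Sham 3, and Mybpc1, the slow-type myosin-binding protein C, with 320, 1.56 and 2.78 CPM. Mybpc2, the fast-type form, had 238, 0.479 and 1.05 CPM.

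**Figure D2:**
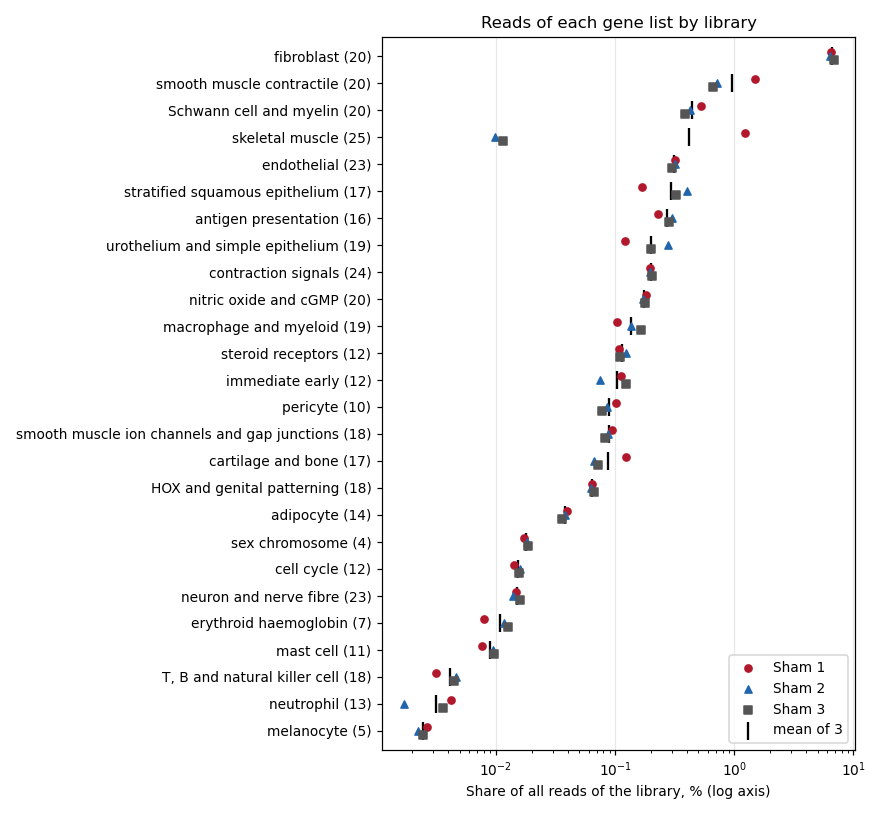
Share of all reads of each library (%, log axis) taken by each of 26 gene lists, with the number of measured members in brackets, 1 symbol per sham library and a bar at the mean. The fibroblast list leads at 6.33 % to 6.83 %, and the skeletal muscle list spans from 0.00987 % in Sham 2 to 1.24 % in Sham 1.

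The sum of the endothelial genes varied less than that of any other cell type list. The 23 members took 0.320 %, 0.319 % and 0.302 % of reads (0.314 % ± 0.0101, SD, n = 3, and 0.311 % without Sham 1). None of the 22 members of at least 10 CPM had a ratio above 2, beside 5.04 % of all 10448 genes at that level. Their median CV was 11.5 %, against 7.62 % for all these genes, so single members were not steadier than most. Pecam1, the junction protein CD31, had 331, 338 and 343 CPM (CV 1.84 %). Aqp1, the water channel of many capillaries, had 623, 644 and 549 CPM. Tek, the angiopoietin receptor, had 164, 184 and 192 CPM, and Eng, a TGF-beta co-receptor, had 275, 227 and 209 CPM. The widest ratios in the list were those of Ackr1, a chemokine-binding receptor of venules, with 26.8, 47.2 and 40.1 CPM, Lyve1, a marker of lymphatic vessels and also of some macrophages, with 86.5, 147 and 143 CPM, and Nos3, the endothelial nitric oxide synthase, with 56.8, 89.9 and 74.6 CPM. All 3 were lowest in Sham 1. Vwf, von Willebrand factor, went the other way, with 345, 231 and 250 CPM.

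The pericyte list, 10 genes of the cells that wrap small vessels, took 0.102 %, 0.0860 % and 0.0783 % of reads (0.0822 % without Sham 1). Mcam had 293, 201 and 184 CPM, Pdgfrb, the receptor that recruits pericytes, had 224, 187 and 206 CPM, and Rgs5, a regulator of G-protein signals, had 135, 164 and 117 CPM. These did not follow a common order of libraries. Cspg4, the proteoglycan NG2, with 97.3, 47.6 and 52.1 CPM, and Cox4i2, a subunit of cytochrome c oxidase, with 16.6, 7.61 and 7.36 CPM, were about as much higher in Sham 1 as the contractile genes.

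The fibroblast list, which holds the main collagens and also Dcn, Gsn and Vim, took 6.51 %, 6.33 % and 6.83 % of reads in its 20 members (6.56 % ± 0.255, SD, n = 3, and 6.58 % without Sham 1). Its sum varied little while single members moved in opposite directions. Postn, periostin, had 368, 882 and 997 CPM. Pi16, a marker of fibroblasts around vessels, had 171, 400 and 420 CPM. Dpt, dermatopontin, had 175, 405 and 257 CPM. These were the 3 members of 19 at 10 CPM or more whose ratio passed 2 (beside 5.04 % of all 10448 genes), and all were lowest in Sham 1. Pdgfra, the growth factor receptor of fibroblasts, had 265, 296 and 374 CPM. Tcf21 stayed between 1.44 and 2.91 CPM.

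Epithelial genes were lowest in Sham 1. The 17 stratified squamous genes measured took 0.169 %, 0.398 % and 0.324 % of reads (0.297 % ± 0.117, SD, n = 3), and 0.361 % on average without Sham 1. All 9 members of at least 10 CPM had a ratio above 2, beside 5.04 % of all 10448 genes at that level. Krt16, a keratin of stressed or fast-renewing epithelium, had 782, 1818 and 1497 CPM. Krt4, a keratin of moist stratified epithelium, had 441, 904 and 856 CPM, and Krt5, the keratin of the basal layer, had 131, 263 and 222 CPM. Krt1, the keratin of cornifying layers, spread most, with 34.9, 326 and 124 CPM. Sham 1 was the lowest for all 4, and Krt1 also separated Sham 2 from Sham 3. Krt10, the usual partner of Krt1, had 8.14, 6.41 and 8.17 CPM and did not follow it. Loricrin, a main protein of the cornified envelope, had 2 reads in Sham 2 and none elsewhere. The Krt16 entry spans 85066802 to 85171799 on chromosome 10, and whether it takes in reads of neighbouring keratin genes was not tested. Krt14, Krt15 and Krtdap were not analysed here.

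The 19 genes of urothelium and simple epithelium took 0.121 %, 0.281 % and 0.201 % of reads (0.201 % ± 0.0802, SD, n = 3, and 0.241 % without Sham 1), and 16 of the 19 were highest in Sham 2 (against 4106 of all 10448 genes). Of 16 members of at least 10 CPM, 13 had a ratio above 2, beside 5.04 % of all 10448 genes at that level. Upk1a, a plaque protein of the urothelial surface, had 183, 321 and 314 CPM. Epcam, an adhesion molecule of epithelia, had 168, 424 and 277 CPM, and Cdh1, E-cadherin, had 132, 298 and 220 CPM. The order Sham 2, Sham 3, Sham 1 was the same in all 3. Krt18, the keratin of simple epithelium, had 12.3, 44.4 and 26.1 CPM, and Cldn7, a tight junction protein, had 17.6, 59.9 and 30.3 CPM. Upk2, which assembles with Upk1a in the urothelial plaque, had 22, 1 and 17 reads, and Krt20 of the superficial urothelial cells was below 0.31 CPM.

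Schwann cell genes were well represented in the reads. The 20 members took 0.530 %, 0.425 % and 0.385 % (0.447 % ± 0.0749, SD, n = 3, and 0.405 % without Sham 1), and 17 of them were highest in Sham 1 (against 2848 of all 10448 genes). None of the 17 members at 10 CPM or more had a ratio above 2, beside 5.04 % of all 10448 genes at that level. Their median CV was 18.5 %, against 7.62 % for all these genes. Pmp22, a protein of peripheral myelin, had 1271, 1059 and 1018 CPM, and Mbp, myelin basic protein, had 555, 416 and 403 CPM. S100b, a calcium-binding protein of glia, had 313, 246 and 221 CPM. All 3 were highest in Sham 1 and lowest in Sham 3. Sox10, the transcription factor of neural crest glia, had 27.5, 14.9 and 15.7 CPM, and Gfra3, a receptor of immature and non-myelinating Schwann cells, had 9.07, 4.19 and 5.07 CPM. Gfap had 2.56, 3.12 and 0.619 CPM.

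Transcripts of neurons were scarce. The 23 neuronal genes took 0.0149 %, 0.0141 % and 0.0160 % of reads (0.0150 % ± 0.000965, SD, n = 3, and 0.0150 % without Sham 1), and 11 had a mean below 1 CPM. The cell bodies of the nerves that reach the penis lie outside it, in the pelvic and sensory ganglia. Uchl1, an abundant neuronal ubiquitin hydrolase that other cells can also make, had 76.7, 59.2 and 85.0 CPM. Prph, the peripheral nerve filament peripherin, had 33.7, 32.1 and 26.9 CPM, and Nos1, the neuronal nitric oxide synthase of the erectile nerves, had 6.81, 8.39 and 7.86 CPM. Slc18a2, the vesicular monoamine transporter, had 8.38, 8.63 and 8.97 CPM, and Gap43, a growth cone protein, had 4.77, 9.77 and 10.6 CPM. Nos1 and Slc18a2 were thus steady at a low level.

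Transmitter genes of the autonomic fibres were picked after their values were seen. Th, the first enzyme of noradrenaline synthesis, had 1, 2 and 0 reads. Vip, the vasodilator peptide of erectile nerves, had 0, 1 and 3 reads, and Tac1, the precursor of substance P, had 3, 0 and 0 reads. Chat, which makes acetylcholine, had 1, 14 and 2 reads. Th, Vip and Tac1 thus did not pass 3 reads, the level that no read allows, in any library, and Chat passed it only in Sham 2. Npy, neuropeptide Y of sympathetic fibres, had 3.61, 1.56 and 2.04 CPM, and Nefh, the heavy neurofilament chain, had 0.814, 4.07 and 0.680 CPM. Hand2, a transcription factor of sympathetic neurons that mesenchyme also uses, had 2.91, 4.01 and 5.38 CPM.

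Among immune cells, macrophage genes were the most abundant. The 19 members took 0.104 %, 0.137 % and 0.164 % of reads (0.135 % ± 0.0300, SD, n = 3, and 0.151 % without Sham 1). Of these, 13 were highest in Sham 3 (against 3494 of all 10448 genes). A ratio above 2 was found for 3 of the 17 members at 10 CPM or more, beside 5.04 % of all 10448 genes. Lyz2, lysozyme, had 337, 331 and 493 CPM. Mrc1, the mannose receptor of resident macrophages, had 90.2, 148 and 131 CPM, and C1qa, a chain of complement C1q, had 80.1, 137 and 148 CPM. Csf1r, the receptor for macrophage growth factor, had 90.0, 112 and 134 CPM. Mrc1, C1qa and Csf1r were lowest in Sham 1, as were 5167 of all 10448 genes. Folr2, a folate receptor of resident macrophages, had 20.5, 36.8 and 46.3 CPM, and Cx3cr1, the fractalkine receptor, ran against it with 14.7, 6.41 and 7.98 CPM.

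Lymphocyte, neutrophil and mast cell genes had few reads. The 18 genes of T, B and natural killer cells took 0.00316 %, 0.00466 % and 0.00447 % (0.00456 % without Sham 1), and the 13 neutrophil genes 0.00422 %, 0.00168 % and 0.00359 % (0.00264 % without Sham 1). Ptprc, CD45 of all leukocytes, had 25.7, 33.5 and 38.2 CPM and made up most of the T, B and natural killer cell share. Among the 18 genes of T, B and natural killer cells, 14 had a mean below 1 CPM, Ptprc among those above. Cd3e, a chain of the T cell receptor complex, had no read in Sham 1, 44 reads in Sham 2 (2.64 CPM) and 5 in Sham 3. Cd3g of the same complex had 0.931, 2.22 and 0.866 CPM, and Cd2, an adhesion receptor of T and natural killer cells, had 1.22, 2.46 and 1.11 CPM. All 3 were highest in Sham 2. Cd4 and Trac were not analysed here. Of the B cell genes Cd79a had 3, 4 and 7 reads and Ms4a1 had 1 read in all.

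The neutrophil proteins S100a8 and S100a9 had 5.76, 0.959 and 3.84 CPM and 9.07, 1.02 and 8.48 CPM, lowest in Sham 2 in both cases. Mpo, myeloperoxidase of neutrophil granules, had 3 reads in Sham 3 and none elsewhere. The 11 mast cell genes took 0.00764 %, 0.00951 % and 0.00972 % of reads (0.00961 % without Sham 1). Their largest members, Gata2 with 42.0, 48.9 and 49.6 CPM and Kit with 23.0, 26.2 and 26.4 CPM, also mark other cells. Cpa3, the mast cell carboxypeptidase, had 2.73, 5.63 and 5.94 CPM, and the tryptase Tpsb2 had 1.11, 3.12 and 2.78 CPM.

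Genes of antigen presentation took 0.231 %, 0.302 % and 0.285 % of reads (0.294 % without Sham 1) in 16 members. B2m, the light chain of class I molecules, had 1359, 2045 and 1606 CPM. Cd74, the invariant chain of class II, had 361, 474 and 487 CPM, and the class II chain RT1-Da had 197, 234 and 261 CPM. All 3 were lowest in Sham 1. RT1-Ba and RT1-Bb, the chains of a second class II molecule, ran otherwise, with 86.8, 18.2 and 123 CPM and 57.7, 19.5 and 77.8 CPM. RT1-Db1, the partner of RT1-Da, had 100, 56.6 and 136 CPM, so 3 class II chains were lowest in Sham 2 where RT1-Da was not. These genes are near-identical in part, and the sources used here do not say how reads were divided among them.

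**Figure D3:**
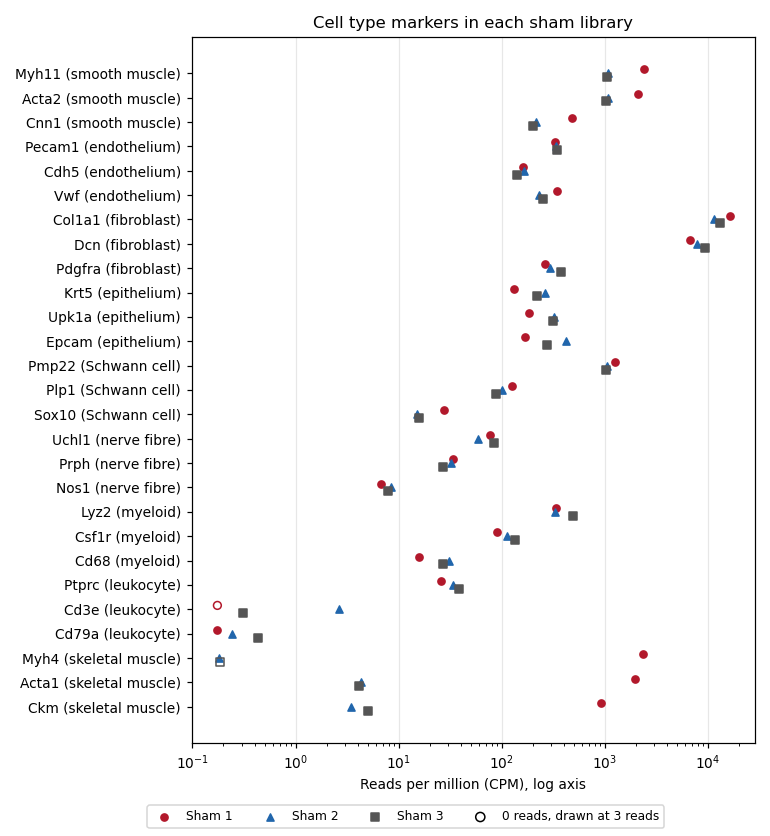
Level (CPM, log axis) of markers of each cell type in the 3 sham libraries, with an open symbol at the level of 3 reads where no read was counted. The 3 libraries nearly coincide for Pecam1, Sham 1 lies above the others for the smooth muscle markers, and Myh4, Acta1 and Ckm lie above 900 CPM only in Sham 1.

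The pathway of nitric oxide and cyclic GMP, through which erection proceeds, had its main receptor and enzymes in all libraries. The 20 genes took 0.181 %, 0.172 % and 0.177 % of reads (0.174 % without Sham 1). Cav1, the caveolar protein that binds endothelial nitric oxide synthase, had 1167, 1063 and 1130 CPM and made up most of this sum. Gucy1a1 and Gucy1b1, the subunits of the nitric oxide receptor that makes cyclic GMP, had 234, 245 and 260 CPM and 38.7, 37.8 and 38.4 CPM. Both subunits were steady (CV 5.32 % and 1.30 %). Pde5a, the phosphodiesterase that breaks cyclic GMP down and the target of sildenafil, had 42.8, 20.9 and 21.0 CPM. Pde2a, another cyclic nucleotide phosphodiesterase, had 89.2, 62.5 and 60.9 CPM. Prkg1, the kinase that cyclic GMP activates, had 11.7, 8.57 and 8.23 CPM, and its reads overlap Cstf2t. Pde5a, Pde2a and Prkg1 were highest in Sham 1, the library with more contractile gene reads, whereas Gucy1a1 was lowest there and Gucy1b1 hardly differed, and the part of muscle content in this was not tested. Nos2, the inducible synthase, had 9, 47 and 6 reads. Gucy1b1 and Prkg1 were named after their values were seen.

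Genes that drive contraction kept a nearly constant sum, with 0.198 %, 0.198 % and 0.204 % of reads (0.201 % without Sham 1) in 24 genes. Rhoa, the small GTPase that holds smooth muscle in tone, had 739, 778 and 806 CPM, and its kinase Rock2 had 188, 190 and 187 CPM. Ece1, which activates endothelin, had 347, 378 and 361 CPM, and Ace, angiotensin-converting enzyme, had 248, 180 and 229 CPM. Receptors were lower in reads. The endothelin receptor Ednra had 57.4, 40.5 and 43.9 CPM, the alpha-1 adrenergic receptors Adra1a and Adra1b had 7.45, 3.30 and 4.64 CPM and 5.35, 2.22 and 2.17 CPM, and the muscarinic receptor Chrm3 had 8.96, 4.31 and 5.94 CPM. All 4 receptors were highest in Sham 1, Ednra being picked after its values were seen.

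The 18 ion channel and gap junction genes took 0.0950 %, 0.0877 % and 0.0831 % of reads (0.0854 % without Sham 1). Atp2a2, the calcium pump of smooth muscle stores, had 410, 374 and 362 CPM, and Itpr1, the calcium release channel, had 182, 176 and 173 CPM. Kcnma1, the large-conductance potassium channel, had 58.8, 32.9 and 32.4 CPM, and its subunit Kcnmb1 had 32.2, 12 and 15.9 CPM. Gja1, connexin 43, which couples cavernous smooth muscle cells, had 64.8, 56.7 and 67.3 CPM. The potassium channel subunits were highest in Sham 1 and the connexin was not. Ano1, a calcium-activated chloride channel that epithelia also use, was highest in Sham 2 with 59.6, 112 and 73.5 CPM.

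Hormone and patterning genes varied little as sums. The 12 steroid genes took 0.108 %, 0.125 % and 0.110 % of reads (0.117 % without Sham 1). Nr3c1, the glucocorticoid receptor, had 246, 229 and 251 CPM, and its targets Tsc22d3 and Fkbp5 had 488, 614 and 485 CPM and 230, 286 and 219 CPM, both highest in Sham 2. Srd5a1 and Srd5a2, the reductases that make dihydrotestosterone, had 31.9, 40.3 and 47.4 CPM and 24.8, 8.63 and 13.4 CPM. Srd5a1 was lowest and Srd5a2 highest in Sham 1. Esr1, an oestrogen receptor, lay between 0.599 and 1.98 CPM. The 18 HOX and genital patterning genes took 0.0640 %, 0.0624 % and 0.0661 % of reads (0.0642 % without Sham 1). Isl1, a gene of the genital mesenchyme, had 70.1, 55.7 and 72.0 CPM, and the limb and genital T-box genes Tbx3 and Tbx4 had 46.8, 56.2 and 58.3 CPM and 52.4, 39.7 and 61.7 CPM.

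Cartilage and bone genes took 0.123 %, 0.0672 % and 0.0717 % of reads (0.0694 % without Sham 1) in 17 members. Col11a1, a fibrillar collagen of cartilage and other dense tissue, had 700, 330 and 385 CPM. Comp, a matrix protein of cartilage and tendon, had 165, 71.1 and 69.7 CPM, and Acan, aggrecan of cartilage, had 37.3, 15.3 and 12.6 CPM. All 3 were highest in Sham 1, but the list as a whole was mixed. Of its 17 members, 7 were highest in Sham 1 (against 2848 of all 10448 genes), 6 in Sham 2 and 4 in Sham 3. Col2a1, the defining collagen of hyaline cartilage, had 1.69, 0.659 and 1.30 CPM, and the osteoblast genes Bglap and Ibsp were below 1 CPM. Of the 3 members with a mean of at least 100 CPM, Col11a1 and Comp are shared with tendon or other dense tissue, and the remaining one is not reported here. Col2a1, Bglap and Ibsp, which are more specific to cartilage or bone, had few reads.

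Further lists were small in reads. The 14 adipocyte genes took 0.0395 %, 0.0381 % and 0.0358 % of reads (0.0369 % without Sham 1), with Fabp4, a fatty acid carrier of adipocytes and capillaries, at 67.3, 72.1 and 72.4 CPM and the fat cell hormone Adipoq at 5.99, 11.7 and 7.73 CPM. Hba-a1, alpha globin, had 71.8, 106 and 117 CPM, and with 6 other erythroid genes it took 0.00789 %, 0.0118 % and 0.0127 % (0.0122 % without Sham 1). The globin reads are uncertain between near-identical copies. The 5 melanocyte genes took 0.00265 %, 0.00221 % and 0.00245 % (0.00233 % without Sham 1), most of it from Mitf, which other cells also use. The 12 cell cycle genes took 0.0142 %, 0.0159 % and 0.0158 % (0.0158 % without Sham 1), with the proliferation marker Mki67 at 6.34, 11.3 and 8.85 CPM.

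Immediate early genes, which respond within minutes to handling or stimulation, took 0.113 %, 0.0742 % and 0.123 % of reads (0.0985 % without Sham 1) in 12 members. None of the 12 was highest in Sham 2 (against 4106 of all 10448 genes). Fos, a subunit of the AP-1 transcription factor, had 83.5, 21.2 and 114 CPM. Fosb, its relative, had 32.6, 5.87 and 33.0 CPM, and Egr1, a zinc finger factor, had 152, 58.0 and 140 CPM. Sham 2 was the lowest in all 3.

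Over all genes the 3 libraries were close. Among the 10448 genes of at least 10 CPM the median CV was 7.62 %, against 3.81 % from counting error alone, and 63.5 % of the genes had a CV under 10 %. Genes of 1 to 10 CPM had a median CV of 19.9 %, those of 10 to 100 CPM one of 7.76 %, those of 100 to 1000 CPM one of 6.88 %, and the 72 genes above that one of 10.2 %. The spread thus did not keep falling with depth. A ratio of the highest to the lowest library above 2 was found for 527 genes (5.04 %) and above 4 for 101. The 10 steadiest genes of at least 100 CPM were Anp32b, Rbms2, Kat6a, Smurf2, Usp25, Ctbp1, Pafah1b1, Tns2, Ywhaz and Adss, with CVs from 0.130 % to 0.451 %, which is below what counting error gives on average. Among them Ywhaz, a 14-3-3 adaptor protein, had 765, 764 and 770 CPM, and Tns2, a tensin of focal adhesions, had 699, 698 and 704 CPM.

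**Figure D4:**
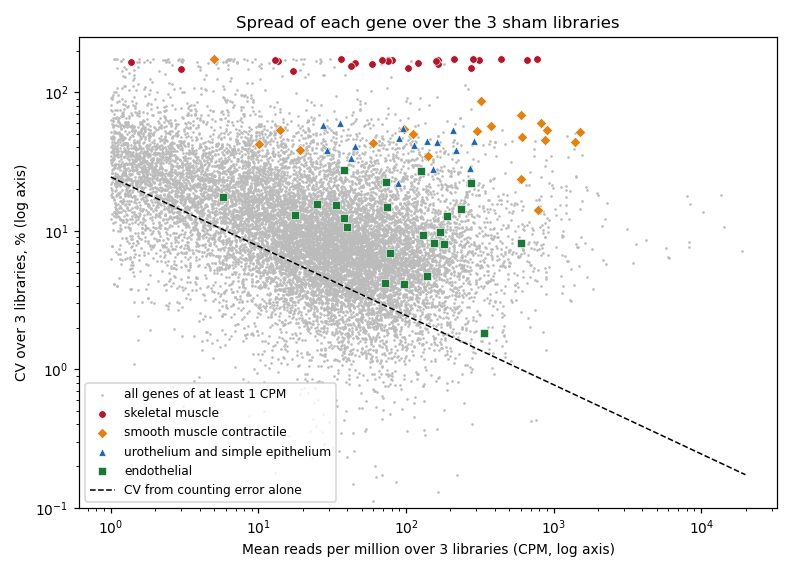
CV over the 3 sham libraries (%, log axis) against mean level (CPM, log axis) for every gene of at least 1 CPM, with 4 gene lists marked and a dashed line for the CV that counting error alone would give. Skeletal muscle genes lie near the highest CV that 3 libraries can give, smooth muscle and epithelial genes lie above most genes of their level, and Pecam1 at 1.84 % is the lowest of the endothelial genes.

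Sham 1 stood apart for more genes than the other libraries did. In Sham 1, 117 genes (1.12 %) were more than 2 times above both other libraries, and 75 (0.718 %) were more than 2 times below both. Of the 117, 23 stood on the skeletal muscle list and 10 on the smooth muscle list. The genes named from these sets were chosen after their values were seen. Pygm, the glycogen phosphorylase of muscle, had 515, 13.4 and 11.7 CPM. Enpp2, autotaxin, a secreted enzyme that makes lysophosphatidic acid, had 410, 147 and 145 CPM. H19, an imprinted non-coding RNA, had 254, 62.8 and 54.7 CPM, and P2rx1, the ATP-gated channel of smooth muscle, had 276, 76.0 and 75.4 CPM (overlapping Itgae). The set therefore held genes outside the contractile lists. On the low side, Thbd, thrombomodulin of endothelium and epithelium, had 244, 490 and 488 CPM. Sult1e1, an oestrogen sulfotransferase, had 16.8, 194 and 156 CPM, and Scara5, a ferritin receptor of fibroblasts, had 70.7, 144 and 154 CPM. Postn, Pi16, Krt1, Krt18 and Sprr1a of the lists above were in the same set.

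In Sham 2, 38 genes (0.364 %) were more than 2 times above both other libraries. Duox2 and Duoxa2, an epithelial oxidase that makes hydrogen peroxide and its maturation factor, which overlap in the table, had 119, 603 and 198 CPM and 20.4, 166 and 36.7 CPM. Pigr, the receptor that carries IgA across epithelium, had 92.0, 577 and 84.9 CPM. Aqp3, a water channel of epithelia, had 52.0, 180 and 78.4 CPM, and Mmp7, a protease of glandular epithelium, had 9.66, 98.8 and 8.10 CPM. These genes are known from epithelia, and the sum of the simple epithelium list was also highest in Sham 2. The part of epithelial content in their levels was not tested. Upk1a and Krt4 did not separate Sham 2 from Sham 3, as given above, whereas Pigr was 6.80 times as high in Sham 2 as in Sham 3.

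Another 23 genes (0.220 %) were more than 2 times below both other libraries in Sham 2, and several were nearly missing there. RT1-CE16, a class I gene (ENSRNOG00000065254, chromosome 20, 3257123 to 3279563), had 146, 4.07 and 169 CPM. A second gene of the same symbol (ENSRNOG00000047706, 3537809 to 3541790) had 7.33, 14.7 and 7.30 CPM. Fam111a, a protease with a role in DNA replication, had 81.0, 1.86 and 75.7 CPM, and LOC100360791, a short gene of chromosome 1 that overlaps Samd3, had 64.7, 0.839 and 80.1 CPM. Sham 1 and Sham 3 lay close together for each of these 3 low genes. Of the 23 genes, 4 were on chromosome 20, which holds 285 of the 10448 genes, and 3 of those bore an RT1 symbol (16 of the 10448), namely the first RT1-CE16 gene, RT1-Ba and RT1-Bb.

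In a pair of similarly named genes, Sham 2 was lowest for one and highest for the other. Rpl30 (chromosome 7, 65645991 to 65651363), which bears the name of a ribosomal protein gene, had 367, 36.6 and 419 CPM. Its entry is annotated as a long non-coding RNA and overlaps LOC120093944. Rpl30l2, a gene of a similar name (chromosome 10, 36831500 to 36831990), had 92.4, 585 and 111 CPM. Their sum was 459, 622 and 529 CPM, which differed far less than either alone. The sources used here do not say how reads of near-identical copies were assigned, and whether assignment differed between libraries was not tested.

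Sham 3 rarely stood apart, with 2 genes (0.0191 %) more than 2 times above both other libraries, Epyc and Fam167a, and 8 genes (0.0766 %) more than 2 times below both. Fam167a had 3.90, 10.6 and 23.6 CPM. The 8 low genes included Grem1, an antagonist of bone morphogenetic proteins, with 42.5, 38 and 17.7 CPM. Others were skeletal muscle genes such as Myh4, which had 3 reads in Sham 2 and none in Sham 3. A library with no read was left as it was in this call, so the place of Myh4 here rests on those 3 reads.

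**Figure D5:**
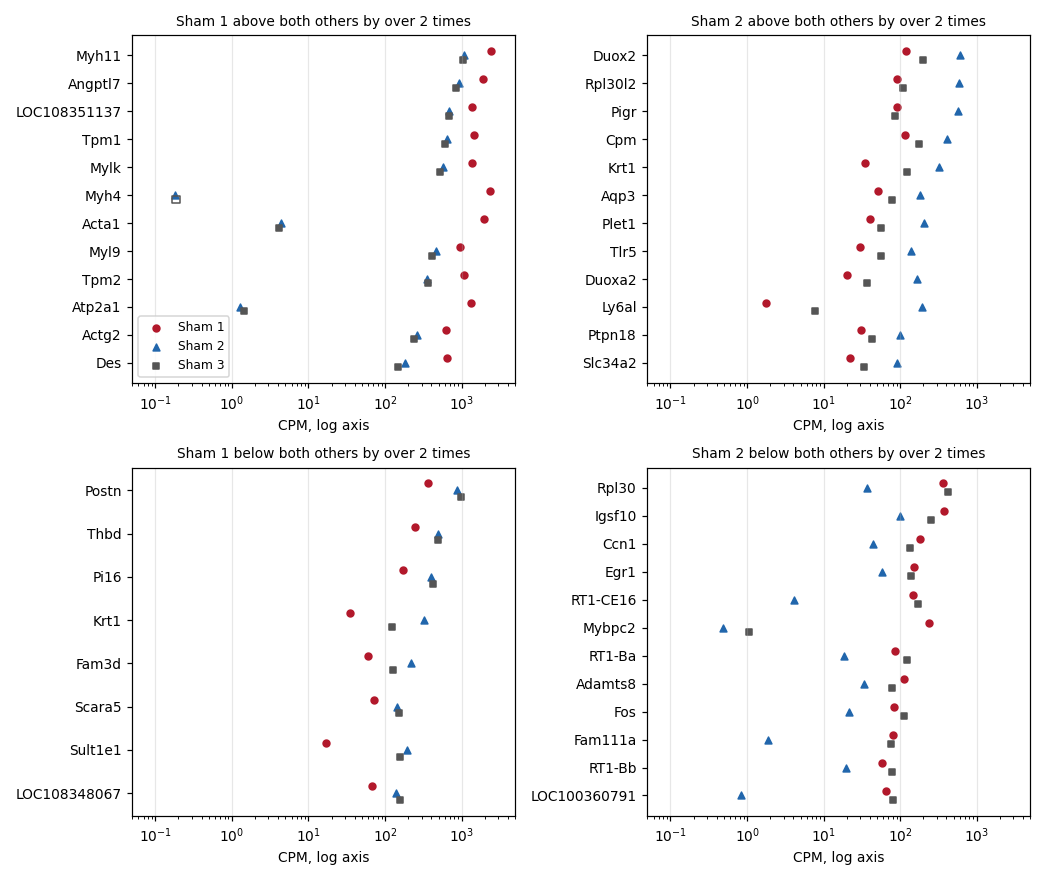
Level (CPM, log axis) in the 3 sham libraries of the genes with the highest means that Sham 1 or Sham 2 sets apart by over 2 times, above (upper panels) or below (lower panels) both other libraries; an open symbol marks no read, drawn at 3 reads. Contractile genes of smooth and skeletal muscle lie to the right in Sham 1, Duox2, Pigr and Ly6al in Sham 2, and RT1-CE16, Fam111a and LOC100360791 lie far to the left in Sham 2.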

How the data were processed

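RNA of penile tissue was sequenced in 9 libraries, and the 3 Sham libraries are described here. The authors deposited 3 tables with the raw read count of each gene per library, per the file headers. The Sham counts stand in 2 of the tables, and 0 values differed between them. A further 12 columns of the other groups' libraries were not used. Per the submitters' processing notes, reads were handled with HISAT2 2.0.5, a read aligner, and the mouse build GRCm38.p6 is named. The organism field also names mouse, whereas titles and tissue name rats and all 21124 identifiers are rat Ensembl identifiers (0 mouse identifiers), so the tables were read as rat data with their own symbols and coordinates. The rat build, annotation release, counting tool, strand setting and library selection are not stated in the sources used here. Counts of overlapping genes and of genes with close copies are therefore uncertain.

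Counts were divided by the total of all gene rows and given per 1000000 reads (CPM), with the mean, SD, CV and ratio of highest to lowest library over n = 3. A library with no read was set to 3 counts in that ratio. A library stands apart for a gene when it lies more than 2 times above or below both others, among genes with a mean of at least 10 CPM. The setting of 3 counts was not used in that call. There is no contrast and no test. A planned ranking per length did not apply, since the tables hold no lengths. Python 3.11.15 with pandas 2.3.3, scipy 1.17.1 and matplotlib 3.10.9 was used, and R 4.3.3 with edgeR 4.0.16 and DESeq2 1.42.0 gave alternative scaling factors only. The spread and apart calls were tested on simulated data.

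The members and the 26 lists were chosen with earlier results of these data known, and 3 more lists were added after values were seen. Genes named by rule were the 25 with the highest mean, up to 6 members per list with the highest mean and 3 with the highest ratio among those of at least 1 CPM, any member without reads, the 20 largest ratios among genes of at least 10 CPM and the 10 smallest CVs among genes of at least 100 CPM. The text prints a part of these, some results are not reported here, and genes outside the rule were chosen after their values were seen. Alternatives were other scaling factors, totals without mitochondrial or skeletal muscle genes, other minimum levels, and each library left out in turn.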

Additional observations from a re-analysis of the deposited data

How the results depend on the processing

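No paired analysis was possible because the results come from no test. With TMM or DESeq2 scaling factors, or a total without the skeletal muscle list, the 25 leading genes were the same 25, and every list share and spread count computed moved by less than 1 SD or 1.5 times. Leaving out 1 library kept 24 of the 25. A total without mitochondrial genes raised every list share, because the same reads were divided by a smaller total. The rise passed 1 SD for results with a small SD, among them the endothelial list (0.314 % to 0.335 %), the fibroblast list (6.56 % to 7.0 %) and the neuron list (0.0150 % to 0.0160 %). The 25 genes' value rose from 14.3 % to 15.2 %, but it still counted their mitochondrial members and is not a share of that total. The count of genes with a ratio above 2 rested on the minimum level and on Sham 1. It was 527 at 10 CPM, 1429 at 1 CPM and 5376 with no minimum, and between 80 (without Sham 1) and 476 with 1 library left out, 252 being the count without Sham 2. For the same gene, a ratio over 2 libraries cannot exceed that over 3, so leaving 1 out tends to lower the count. The genes that reached the minimum also changed with the libraries kept. Above 4 times the count was 101, 334 and 1044, and between 18 (without Sham 1) and 108. Leaving out the skeletal and smooth muscle lists, a choice made after seeing the data, gave 489 and 77. Detected genes numbered 13905 at 1 CPM in every library, 14692 at 10 counts in every library and 20504 with a count in any. With 16 or 17 reads at 1 CPM, genes of 1 to 10 CPM had a median CV of 19.9 % against 12.7 % from counting error, and with 3 libraries a single one sets the SD.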
